A study of Mus musculus with 12 samples.

Results

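The effect of losing the transcription factor c-Myb on the transcriptome of mouse plasmablasts (PB) was compared with its effect on germinal centre (GC) B cells. For each gene the log2 ratio of knockout to control in GC B cells was subtracted from the same ratio in PB. A negative difference therefore means that the transcript was lower, relative to control, in knockout PB than in knockout GC B cells. The comparison used 8 of the 12 RNA sequencing libraries of the study, in 4 groups of 2 pools, and all 13131 expressed genes of 27179 counted gene IDs.

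All mice were C57BL/6 and carried Myb fl/fl alleles. Knockout mice also carried CD23-cre T/+, which is driven by the promoter of the mature B cell gene Fcer2a, and control mice had no cre, so the presence of cre and the loss of Myb cannot be told apart. GC B cells were sorted on day 12 after immunisation with NP-KLH in alum. PB were sorted on day 5 after a secondary dose of NP-KLH in PBS. Control GC pools 1 and 2 held 3 and 2 mice, knockout GC pools 2 and 3, control PB pools 6 and 7 and knockout PB pools 5 and 4. Both sexes entered some pools, and their age was not given in the sources used here. Knockout and control pools of 1 number and cell type shared their experiment dates, but PB and GC B cells shared none, so day and cell type cannot be told apart. Each p-value measures the spread between pools or, where the date is in the model, between same-date differences of knockout and control pools.

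c-Myb is a DNA-binding transcription factor of blood progenitors and of dividing and differentiating lymphocytes. Germinal centre B cells divide, mutate their immunoglobulin genes and are selected for antigen binding, under transcription factors such as Bcl6. Plasmablasts are dividing antibody-secreting cells in which Blimp-1 (Prdm1), Xbp1 and Irf4 replace the B cell programme with a secretory one, and in which chemokine receptors and integrins direct migration to bone marrow and mucosa. The comparison asks which transcripts respond to the knockout in 1 of these stages and not in the other, or respond in opposite directions.

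Library totals ranged from 8285934 to 9963612 counts (GC) and from 19027311 to 24775050 (PB). The part taken by immunoglobulin genes was 1.59 to 3.03% for GC B cells and 65.0 to 70.0% for PB. The summed level of 10 GC B cell markers (Bcl6, S1pr2 and others) was 1682 to 2290 CPM in GC pools and 198 to 210 in PB pools. For 10 plasma cell markers (Prdm1, Sdc1, Jchain and others) it was 123224 to 169544 in PB pools and 1301 to 2544 in GC pools. T cell markers (15 genes) summed to 71.5 and 80.9 CPM in control and 92.6 and 86.8 in knockout GC pools 1 and 2. In PB pools they summed to 21.0 and 32.6 CPM (control) and 22.5 and 33.5 (knockout). The part of T cell transcripts in the results below was not tested. CPM here and below is the count scaled to library size and TMM factor, except where it is called unscaled (library size only). Myb itself had 14 and 11.5 CPM in control and 13.0 and 11.6 in knockout GC pools, and 4.13 and 4.64 in control and 3.11 and 3.10 in knockout PB pools. The count covers the whole gene, with the floxed exons not given in the sources used here, so Myb counts check nothing about the knockout. Knockout GC pool 1 is labelled as 2 females, but it held 67.2 unscaled CPM of the Y-linked gene Ddx3y and 54.1 of Eif2s3y. Control GC pool 1, with 1 male among its mice, held 17.7 and 18.7. Results are therefore also given without that knockout pool, which leaves only 1 knockout GC pool.

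Without the experiment date in the model, the Myb effect differed between PB and GC B cells for 1 gene, Faxc (0.00762% of the genes tested; edgeR quasi-likelihood test, adjusted p under 0.05), and 489 genes had an unadjusted p under 0.05. With the date as a block within each cell type, the effect differed for 71 genes (0.541% of those tested; 1016 at an unadjusted p under 0.05). Of these, 63 had a lower effect in PB (0.48%) and 8 a higher one (0.0609%). Without the date the adjusted p of the 63 ran from 0.0145 to 1 and that of the 8 from 0.204 to 0.816. Pools of 1 number shared their dates within a cell type, and their deviations from the group mean correlated at 0.600 in GC B cells and 0.453 in PB across 13131 genes. The values below are therefore from the fit with the date unless stated otherwise. The fit without the date had been set as the main test, and the fit with the date as an alternative to it.

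By pairs, both PB effects lay below both GC effects in all 63 genes (23.9% of all tested genes) and above them in all 8 (21.9%). Among all genes tested, both PB effects lay on one side of both GC effects in 6012 (45.8%), so this order alone is common. With the date, leaving out 1 pool leaves its partner to set only the date, so that cell type's effect comes from its other pair. Leaving out either pool of a pair is thus nearly the same analysis, so the 8 analyses are not independent. The direction of the 71 genes, whose pair effects do not overlap, could not change. Leaving out any 1 of the 8 pools left 18 to 23 genes called, of which 15 to 19 were among the 71, and all 71 kept their direction in each case. Without knockout GC pool 1 the count was 21, of which 16 were among the 71, and without the date 0 genes were called. Called with each of the 8 pools left out in turn were 8 genes: Faxc, Itgb7, Abca3, Tns3, Ighv1-15, Igkv8-28 and the IDs 100861531 and 19791, which have no symbol here.

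**Figure D1:**
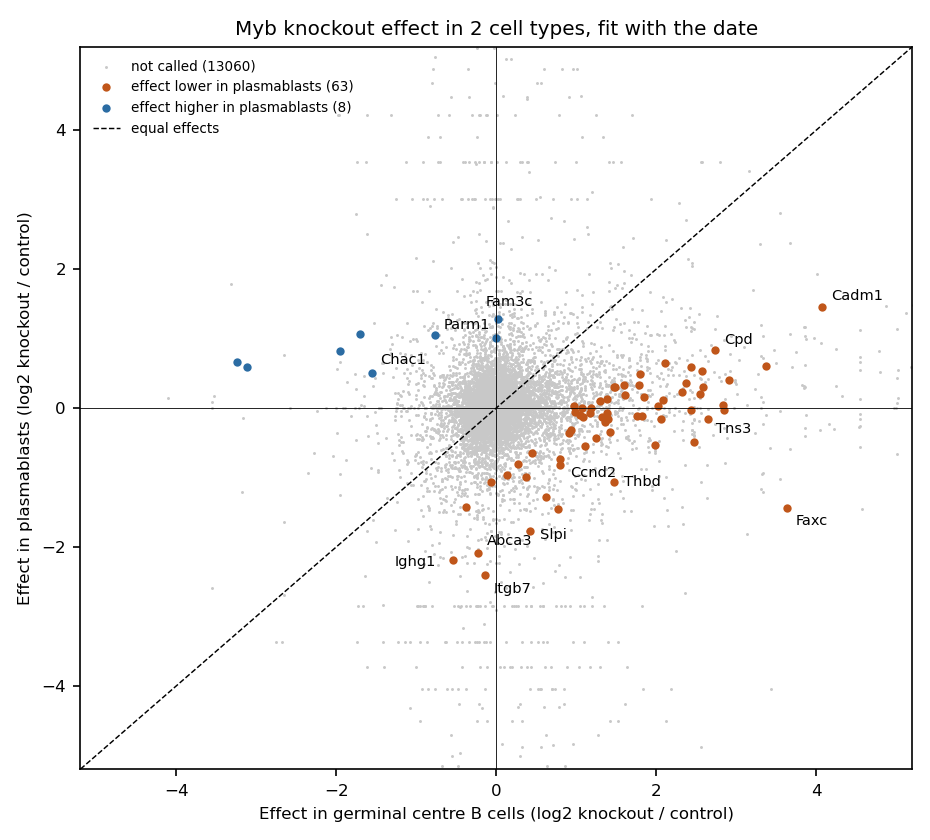
Each point is 1 of the genes tested, placed by its log2 knockout to control ratio in germinal centre B cells (horizontal) and in plasmablasts (vertical), from the fit with the date. The dashed line marks equal effects, the 63 genes with a lower effect in plasmablasts lie below it and the 8 with a higher effect above it; 34 genes lie outside the axes and are not drawn.

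The 63 genes fell into patterns by the tests in each cell type. In 46 the transcript was higher in knockout GC B cells and did not pass in PB. Of these 46, 18 rose and 14 fell in both PB pairs, against 3977 and 3809 of all 13131 tested genes. Not passing in PB is thus not evidence of no effect there. In 12 genes the transcript was lower in knockout PB and did not pass in GC B cells. In 2, Faxc and Ccnd2, it was higher in knockout GC B cells and lower in knockout PB, in 1, Cadm1, it was higher in both, and in the other 2 it passed in neither. Of the 8 genes with a higher effect in PB, 5 were lower in knockout GC B cells only, 2 were higher in knockout PB only and 1 passed in neither. For scale, the knockout effect alone passed for 318 genes in GC B cells (2.42%; 2.03% higher and 0.396% lower) and for 76 in PB (0.579%; 0.213% higher and 0.366% lower).

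For the promoters, 250 bases before the RefSeq start (build GRCm38.p6) were searched on both strands for AACNG, the core of the site that Myb proteins bind. Of the 52 called non-immunoglobulin genes with a lower effect in PB, 40 had an entry and 31 of these (77.5%) held a match. Among the promoters of all tested genes, 7111 of 9824 (72.4%) did, and among all 27025 promoters 74.1%. GGTGTG, the core of the T-box site, was in 6 of the 40 (15.0%) and in 15.3% of promoters of tested genes. AACNG is thus present in most promoters, called or not. The shares above used the whole window of 250 bases, unlike the sequences below. The sequences of Rbm47 and Creb3l2, both higher in knockout GC B cells only, show 246 bases with 3 matches and 122 bases with none. In Creb3l2 the other 128 bases of the window are left out. Faxc, Tns3, Prg2 and Itgb7 were also picked by the size of their difference and are not shown. All 250 bases of Faxc and Itgb7 were left out, Tns3 kept 27 with no match, and Prg2 had no entry. Rbm47 is shown for chr5:66151959-66152204 (minus strand) and Creb3l2 for chr6:37442277-37442398 (minus strand). Bases inside an annotated exon or the gene's own span are left out, each runs 5′ to 3′, and capitals mark AACNG on either strand.
Rbm47: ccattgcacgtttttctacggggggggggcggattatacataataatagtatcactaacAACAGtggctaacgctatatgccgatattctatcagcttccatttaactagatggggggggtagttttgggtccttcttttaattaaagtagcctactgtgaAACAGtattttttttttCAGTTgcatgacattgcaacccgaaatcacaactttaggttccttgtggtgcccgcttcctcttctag
Creb3l2: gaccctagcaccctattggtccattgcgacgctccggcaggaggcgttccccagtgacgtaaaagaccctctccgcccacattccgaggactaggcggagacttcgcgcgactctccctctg

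Among the 12 genes that were lower in knockout PB only, the integrin gene Itgb7 had the largest effect in PB. Its product, the beta 7 subunit, pairs with alpha 4 to bind the gut vessel ligand MAdCAM-1. Itgb7 (ID 16421, mm10 chr15:102215994-102233405) had 111 and 132 CPM in control PB pools 1 and 2 and 19.3 and 27.1 in knockout PB pools. In GC B cells it had 29.4 and 21.9 CPM in control and 30.8 and 16.8 in knockout pools. The PB groups did not overlap, and the GC groups did. The effect was log2 -2.40 (SE 0.14) in PB and -0.14 (SE 0.14) in GC B cells, and the difference was -2.26 (SE 0.19, edgeR adjusted p = 0.000505). In the fit that ignores the date the edgeR adjusted p was 0.204. With knockout GC pool 1 left out, the difference was log2 -2.02 (edgeR adjusted p = 0.0106).

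Abca3 encodes a lipid transporter of the ABC family. Abca3 (ID 27410, chr17:24351921-24410204) had 59.9 and 38.2 CPM in control PB and 13.9 and 9.07 in knockout PB. In GC B cells, where its level was higher, it had 131 and 93.3 CPM in control and 106 and 84.6 in knockout pools. Its PB groups were apart and its GC groups overlapped. The difference of effects was log2 -1.87 (SE 0.18, edgeR adjusted p = 0.00114; 0.49 with the date ignored), from -2.09 (SE 0.14) in PB and -0.23 (SE 0.11, edgeR adjusted p = 0.491) in GC B cells, where both pairs were below 0 (log2 -0.31 and -0.14). Leaving out knockout GC pool 1 gave log2 -1.95 (edgeR adjusted p = 0.0106).

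Slpi, a secreted inhibitor of serine proteases, is one of the abundant transcripts of PB. It had 12695 and 18924 CPM in control PB pools and 4318 and 4810 in knockout PB pools. GC pools had 41.7 and 59.2 CPM (control) and 45.0 and 97.8 (knockout). Both knockout PB pools were below both control PB pools, whereas the GC groups overlapped. The effect was log2 -1.77 (SE 0.19) in PB and 0.42 (SE 0.19) in GC B cells, a difference of -2.19 (SE 0.27, edgeR adjusted p = 0.00444; 0.49 with the date ignored). The call held in 4 of the 8 analyses with 1 pool left out.

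The heavy chain gene of IgG1, Ighg1 (ID 16017, chr12:113326541-113330523), belonged to the same pattern. It had 293256 and 394495 CPM in control PB and 68846 and 80729 in knockout PB. GC pools had 904 and 954 CPM (control) and 501 and 819 (knockout). Knockout pools were below control pools in both cell types, with a wider gap in PB. The difference was log2 -1.65 (SE 0.31, edgeR adjusted p = 0.044; 0.754 with the date ignored), from -2.19 (SE 0.23) in PB and -0.54 (SE 0.22, edgeR adjusted p = 0.35) in GC B cells. Without any 1 of the 8 pools this call was lost.

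Apart from Ighv1-59, none of the other 8 genes of this pattern was called with any 1 pool left out. Nucb2, which encodes a calcium-binding protein and precursor of nesfatin, had 87.1 and 99.4 CPM in control PB and 40.6 and 53.6 in knockout PB (difference log2 -1.37, SE 0.19, edgeR adjusted p = 0.0108). Siglecg, an inhibitory lectin of B cells that binds sialic acid, had 41.4 and 29.7 CPM in control PB and 14.4 and 11.9 in knockout PB (difference log2 -1.05, edgeR adjusted p = 0.0179). Pik3r5, a regulatory subunit of phosphoinositide 3-kinase gamma, had 40.8 and 47.2 CPM in control PB and 18.3 and 17.7 in knockout PB (difference log2 -1.91, edgeR adjusted p = 0.0145). In each, the knockout PB pools lay below the control PB pools. The inflammasome adaptor gene Pycard (difference log2 -1.08), the transmembrane adaptor gene Lime1 (log2 -1.10), the thrombomodulin gene Thbd (log2 -2.53), BC035044 (log2 -0.99) and the variable segment Ighv1-59 (log2 -2.23) complete the 12. Ighv1-59 was called in 4 of the 8 analyses with 1 pool left out.

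**Figure D2:**
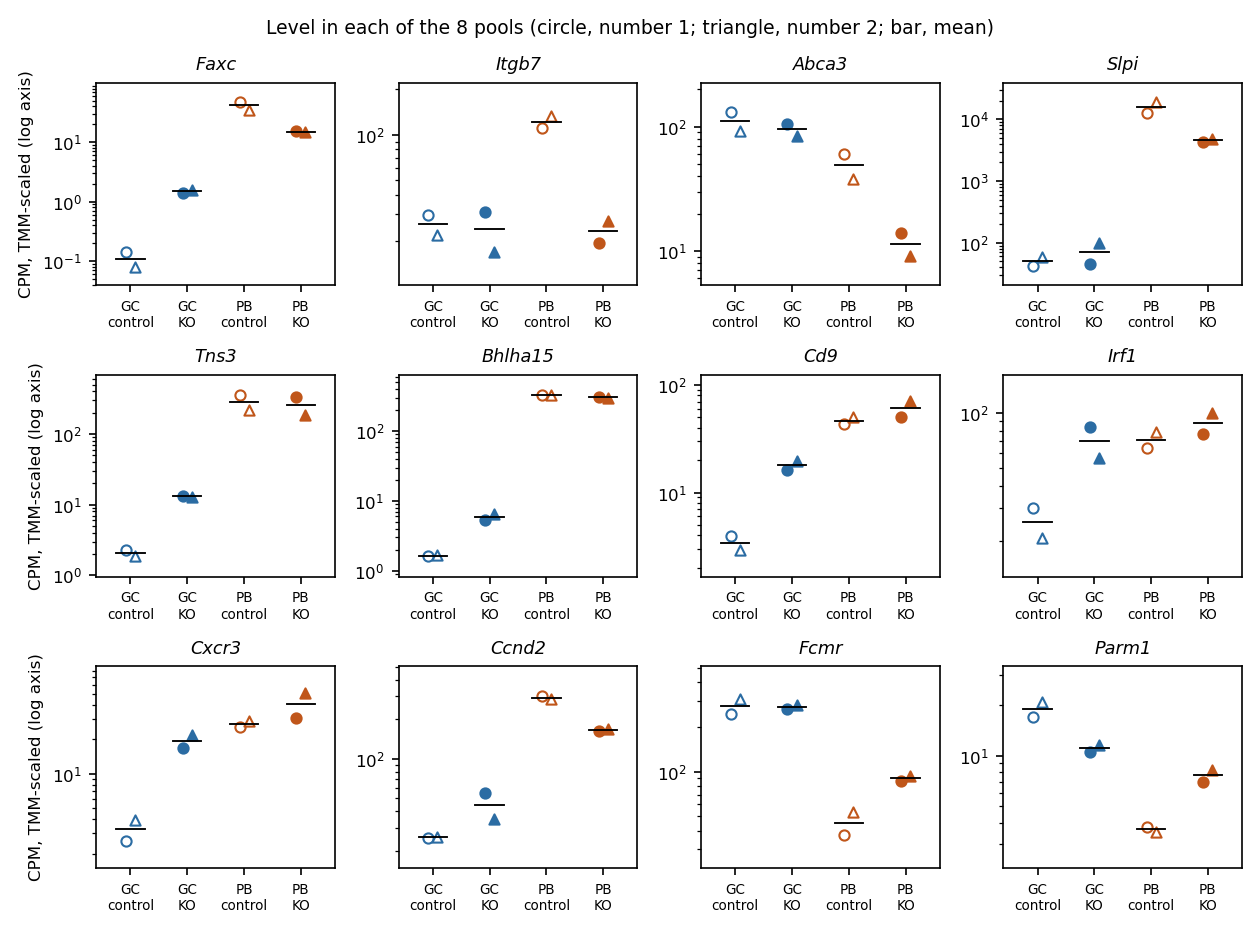
TMM-scaled CPM on a log axis of selected genes in the 8 pools, by cell type and genotype (open, control; filled, knockout; circle, number 1; triangle, number 2; bar, mean). Itgb7, Abca3 and Slpi fell with the knockout in plasmablasts and did not pass the test in germinal centre B cells, whereas Tns3 and Bhlha15 rose in germinal centre B cells and did not pass in plasmablasts.

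Opposite directions in the 2 cell types passed the tests for Faxc and Ccnd2. Faxc (ID 76132, chr4:21930906-22001461) had 48.1 and 35.4 CPM in control PB and 15.2 and 15.1 in knockout PB. In GC B cells it had 0.14 and 0.0806 CPM in control pools and 1.39 and 1.57 in knockout pools, from 3 counts in both control pools together and 47 in both knockout pools. The GC count ratio was thus 13.1 with an exact 95% interval of 4.23 to 66.0, which covers counting error only. Both groups were apart in each cell type. The difference was log2 -5.08 (SE 0.53, edgeR adjusted p = 0.00136), and with the date ignored -5.10 (SE 0.54, edgeR adjusted p = 0.0145). The size depends on the few control counts. Without knockout GC pool 1 it was log2 -5.62 (edgeR adjusted p = 0.015) with the date, and the call without the date was lost.

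Ccnd2 encodes cyclin D2, which drives entry into the cell cycle. Ccnd2 (ID 12444, chr6:127125162-127152188) had 24.9 and 25.6 CPM in control and 54.8 and 34.9 in knockout GC pools, against 299 and 285 in control and 163 and 169 in knockout PB pools. Knockout pools were higher than control pools in GC B cells and lower in PB. The effects were log2 0.80 (SE 0.16, edgeR adjusted p = 0.0266) and -0.82 (SE 0.15, edgeR adjusted p = 0.0425), and the difference was -1.61 (SE 0.22, edgeR adjusted p = 0.00906; 0.354 with the date ignored). Without knockout GC pool 1, whose GC level was the highest, the difference was log2 -1.26 (edgeR adjusted p = 0.129).

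**Figure D3:**
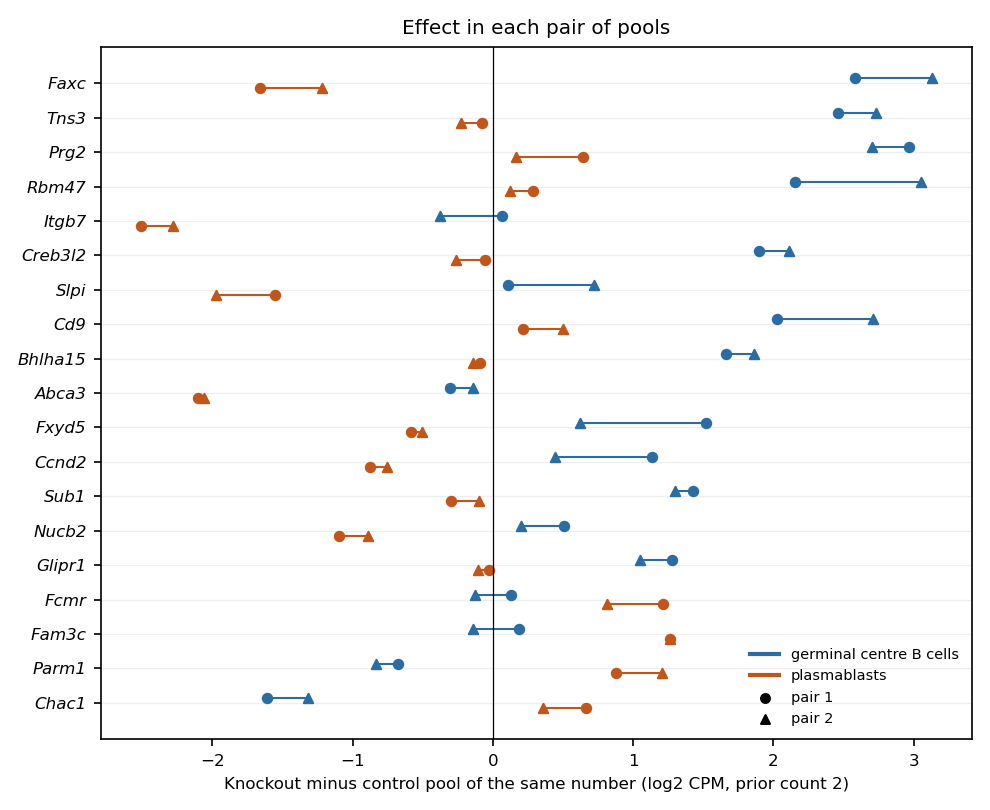
Log2 ratio of knockout to control in each of the 2 same-date pairs of germinal centre B cells and of plasmablasts, for the genes named by rule. Plasmablast pairs lie below germinal centre pairs for the genes with a negative difference, such as Itgb7 and Tns3, and above them for Chac1, Parm1, Fam3c and Fcmr.

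The 46 genes that were higher in knockout GC B cells and did not pass in PB were all more abundant in control PB than in control GC B cells, against 4522 of 13131 (34.4%) among all tested genes. The share among all 266 genes higher in knockout GC B cells was not taken. How far the selection of the 46 shaped this was therefore not tested. The gain of the 46 in GC B cells amounted to 0.353% to 62.8% of the control PB level, with a median of 3.34%, and 9 of them were immunoglobulin genes. The summed level of the plasma cell markers was 1301 and 2103 CPM in control and 1720 and 2544 in knockout GC pools 1 and 2. The median gain of the 10 markers was 0.350% of the control PB level in pair 1 and 0.502% in pair 2, with ranges of -0.0324 to 9.08% and -0.360 to 5.29%. In bulk samples, more cells of a type and more RNA per cell cannot be told apart. Whether cells with plasmablast transcripts in the GC gate had a part in these 46 genes was not tested.

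Tns3 encodes a tensin, which links integrins to the cytoskeleton. Tns3 (ID 319939, chr11:8431652-8664758) had 2.31 and 1.85 CPM in control and 13.2 and 12.9 in knockout GC pools, against 357 and 215 in control and 337 and 184 in knockout PB pools. The GC groups were apart by several fold, and the PB groups overlapped. The difference was log2 -2.80 (SE 0.28, edgeR adjusted p = 0.00134; 0.354 with the date ignored), from 2.64 (SE 0.23) in GC B cells and -0.15 (SE 0.15) in PB. Its gain in GC B cells was 3.85% of the control PB level. Without knockout GC pool 1 the difference was log2 -2.95 (edgeR adjusted p = 0.0106).

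Bhlha15 and Creb3l2 were the transcription factors of the plasma cell list with this pattern. Bhlha15 encodes Mist1, which enlarges the secretory apparatus. It had 1.61 and 1.69 CPM in control and 5.33 and 6.44 in knockout GC pools, and 328 and 330 in control and 308 and 299 in knockout PB pools (difference log2 -1.94, SE 0.22, edgeR adjusted p = 0.00216; 0.204 with the date ignored). Creb3l2, a membrane-bound factor activated by endoplasmic reticulum (ER) stress, had 1.68 and 1.37 CPM in control and 6.55 and 6.30 in knockout GC pools. In PB it had 380 and 210 in control and 365 and 175 in knockout pools (difference log2 -2.23, SE 0.29, edgeR adjusted p = 0.0079). Both rose in GC B cells in both pairs and did not pass in PB. Bhlha15 kept its call in 7 of the 8 analyses with 1 pool left out and Creb3l2 in 0. Prdm1 itself had 3.21 and 4.03 CPM in control and 21.8 and 14.9 in knockout GC pools, and 237 and 173 in control and 292 and 209 in knockout PB pools. Its difference did not pass (log2 -2.05, SE 0.40, edgeR adjusted p = 0.111). Irf4 (log2 -0.66, SE 0.20, edgeR adjusted p = 0.286) and Xbp1 (log2 -0.60, SE 0.20, edgeR adjusted p = 0.387) did not pass either.

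Other genes of this pattern encode surface, nuclear and RNA-binding proteins. The tetraspanin gene Cd9 had 3.91 and 2.9 CPM in control and 16.3 and 19.6 in knockout GC pools, and 43.0 and 50.1 in control and 49.96 and 70.9 in knockout PB pools (difference log2 -2.02, SE 0.25, edgeR adjusted p = 0.00436). Sub1, a transcriptional coactivator, had 30.5 and 28.4 CPM in control and 82.1 and 69.9 in knockout GC pools, and 596 and 838 in control and 485 and 781 in knockout PB pools (difference log2 -1.56, SE 0.17, edgeR adjusted p = 0.00167). Prg2, which encodes the major basic protein of eosinophil granules, had 1.68 and 2.02 CPM in control and 13.9 and 13.8 in knockout GC pools, and 286 and 583 in control and 447 and 654 in knockout PB pools (difference log2 -2.50, SE 0.33, edgeR adjusted p = 0.00906). For Cd9, Sub1 and Prg2 the GC groups were apart and the PB groups overlapped. Their gain in GC B cells was 31.2%, 6.49% and 2.76% of the control PB level.

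The RNA-binding protein gene Rbm47 had 1.40 and 0.322 CPM in control and 6.61 and 3.49 in knockout GC pools (difference log2 -2.34, SE 0.34, edgeR adjusted p = 0.0116). It overlaps the noncoding gene Gm26725, and the counting used a strand setting not given in the sources used here. Fxyd5, a regulator of the sodium pump, had 7.54 and 7.66 CPM in control and 21.8 and 11.8 in knockout GC pools (difference log2 -1.66, SE 0.24, edgeR adjusted p = 0.0119). Glipr1 had 8.73 and 11.0 CPM in control and 21.3 and 23.0 in knockout GC pools (difference log2 -1.24, SE 0.18, edgeR adjusted p = 0.0116). In all 3 the knockout GC pools were above the control GC pools. Without knockout GC pool 1 the edgeR adjusted p was 0.055 for Rbm47, Sub1 and Creb3l2, 0.0877 for Prg2, 0.188 for Fxyd5 and 0.202 for Glipr1, and the direction held for each. Bhlha15 (0.0285) and Cd9 (0.0106) still passed.

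Cxcr3 and Irf1, both on the T-bet and type 1 list, rose in knockout GC B cells and did not pass in PB. Cxcr3, the receptor for chemokines induced by interferon gamma, had 2.58 and 3.95 CPM in control and 16.7 and 21.8 in knockout GC pools. In PB it had 25.7 and 29.1 CPM in control and 31.0 and 50.6 in knockout pools. The groups were apart in both cell types, with the wider gap in GC B cells (difference log2 -2.03, SE 0.36, edgeR adjusted p = 0.0354; 0.49 with the date ignored). Irf1, a transcription factor of interferon signalling, had 30.2 and 20.6 CPM in control and 83.8 and 56.9 in knockout GC pools, and 64.3 and 78.8 in control and 76.3 and 100 in knockout PB pools (difference log2 -1.17, SE 0.18, edgeR adjusted p = 0.0133). The gain in GC B cells was 58.4% of the control PB level for Cxcr3 and 62.8% for Irf1, far above the median of the 46. Neither call held with any 1 pool left out. Tbx21, which encodes T-bet, had 3.91 and 3.22 CPM in control and 20.1 and 13.5 in knockout GC pools, and 0.988 and 1.63 in control and 1.95 and 3.21 in knockout PB pools. It was higher in the knockout pools of both cell types, and its difference did not pass (log2 -1.25, SE 0.41, edgeR adjusted p = 0.368).

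Cadm1, an adhesion molecule of the immunoglobulin superfamily, was higher in the knockout in both cell types, and more so in GC B cells. It had 0.559 and 0.161 CPM in control and 8.23 and 4.18 in knockout GC pools, and 6.56 and 3.51 in control and 15.7 and 11.7 in knockout PB pools. The groups were apart in both. The effect was log2 4.08 (SE 0.35) in GC B cells, from 10 and 203 counts, and 1.46 (SE 0.24) in PB. The difference was log2 -2.62 (SE 0.46, edgeR adjusted p = 0.0288; 0.621 with the date ignored).

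Of the 8 genes with a higher effect in PB, 4 have a symbol. Fcmr, which encodes the Fc receptor for IgM, had 37.2 and 53.1 CPM in control PB and 86.4 and 93.5 in knockout PB, and 243 and 308 in control and 266 and 282 in knockout GC pools (difference log2 1.02, SE 0.18, edgeR adjusted p = 0.0318). Fam3c, which encodes a secreted protein, had 3.50 and 4.52 CPM in control PB and 8.57 and 11.0 in knockout PB, and 42.5 and 55.1 in control and 48.2 and 50.1 in knockout GC pools (difference log2 1.26, SE 0.23, edgeR adjusted p = 0.0354). Both rose in knockout PB, where they are less abundant than in GC B cells, and their GC groups overlapped. The list of 12 naive follicular markers, which holds Fcmr, summed to 207 and 409 CPM in control and 330 and 339 in knockout PB pools, and its part in this result was not tested. Parm1 had 16.8 and 20.7 CPM in control and 10.5 and 11.6 in knockout GC pools, and 3.77 and 3.51 in control and 7.01 and 8.26 in knockout PB pools. It was lower in knockout GC and higher in knockout PB pools, with no overlap, but neither effect passed alone (difference log2 1.82, SE 0.32, edgeR adjusted p = 0.028). Chac1, an enzyme of glutathione breakdown induced in the integrated stress response, had 1.47 and 2.9 CPM in control and 0.406 and 1.10 in knockout GC pools, and 19.4 and 23.2 in control and 30.8 and 29.7 in knockout PB pools. It was lower in the knockout in GC B cells (log2 -1.56, SE 0.31, edgeR adjusted p = 0.0246) and its difference was log2 2.07 (SE 0.35, edgeR adjusted p = 0.0264). No call of these 4 held with any 1 pool left out, and their adjusted p without knockout GC pool 1 in edgeR was 0.118 to 0.229.

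The other 4 are gene IDs without a symbol in the annotation used here, so the RNAs they count were not identified. The structural RNA symbols Rn45s, Rn18s, Rn28s1, Rn7s1 and Rn7s2 were missing from that annotation. Whether any of these IDs is one of those RNAs was not tested, so they cannot be read as transcripts that depend on Myb. ID 100861531 had 27818 and 24785 CPM in control and 3109 and 2929 in knockout GC pools, and 1778 and 3228 in control and 2042 and 6440 in knockout PB pools. ID 19791 had 2712 and 2587 CPM in control and 274 and 285 in knockout GC pools, and 155 and 349 in control and 201 and 674 in knockout PB pools. In both, the control GC pools stood far above the other 6 libraries. The differences were log2 3.72 (SE 0.29, edgeR adjusted p = 0.000248) and 3.91 (SE 0.22, edgeR adjusted p = 1.82e-05), the lowest adjusted p of all genes tested. ID 100861531 took 4.51% and 3.71% of all counts in the control GC pools and 0.0799 to 0.538% in the other 6. IDs 100628579 and 100628584 differed in the same direction (log2 2.78 and 2.77).

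Of 222 tested variable segments of the immunoglobulin loci, 186 had a negative difference, with a median of log2 -1.06 from medians of 1.03 in GC B cells and -0.07 in PB. Over all tested genes 6750 of 13131 (51.4%) were negative and the median was -0.01. With the date 10 segments passed, all lower, and without it 0 passed. The share of all counts from immunoglobulin genes was 1.59 and 1.81% in control and 3.03 and 2.76% in knockout GC pools 1 and 2, and 65.0 and 68.4% in control and 70.0 and 68.6% in knockout PB pools. Its part in these results was not tested. They were 7 of 117 heavy chain segments and 3 of 102 kappa segments. Ighv1-15 had 1.40 and 1.61 CPM in control and 7.77 and 10.5 in knockout GC pools, and 414 and 291 in control and 506 and 362 in knockout PB pools (difference log2 -2.28, SE 0.23, edgeR adjusted p = 0.00134). Igkv8-28 had 6.22 and 3.55 CPM in control and 23.0 and 17.9 in knockout GC pools, and 877 and 968 in control and 962 and 1040 in knockout PB pools (difference log2 -1.97, SE 0.20, edgeR adjusted p = 0.00136). The GC groups of both segments were apart and the PB groups overlapped. Some segments are near-identical in sequence, and segment use varies between B cell clones, so the counts of single segments are uncertain.

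Shares of the heavy chain constant counts give the isotype composition apart from the total. IgM (Ighm) held 69.3 ± 0.853% of these counts in control GC, 71.6 ± 2.48% in knockout GC, 45.9 ± 5.11% in control PB and 76.6 ± 5.12% in knockout PB (SD, n = 2 pools in each). Ighg1 held 17.5 and 16.9% in control GC pools, 5.63 and 10.6% in knockout GC pools, 36.5 and 40.7% in control PB pools and 7.46 and 8.41% in knockout PB pools. The Ighm share was thus higher in knockout than in control pools of PB and overlapped in GC B cells, and the Ighg1 share was lower in the knockout in both. The difference of effects on the log2 share was 0.69 for Ighm (exact permutation p = 0.278, two-sided) and -1.13 for Ighg1 (exact permutation p = 0.5). Ighg2c held 1.94 ± 0.478% and 6.19 ± 0.897% in control and knockout GC and 2.39 ± 0.148% and 6.45 ± 2.95% in control and knockout PB, with a difference of log2 -0.34 (exact permutation p = 0.833; n = 2 pools). Its share was higher in both knockout pools than in both control pools of each cell type. By pairs, the Ighm share effect was log2 0.69 and 0.79 in PB and 0.09 and -0.00 in GC B cells, and that of Ighg1 -2.29 and -2.27 in PB and -1.63 and -0.68 in GC B cells. Labels were permuted within each cell type in 36 ways without regard to the shared dates, so no p could be below 0.0556. After adjustment over the 8 isotypes each was 0.833.

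**Figure D4:**
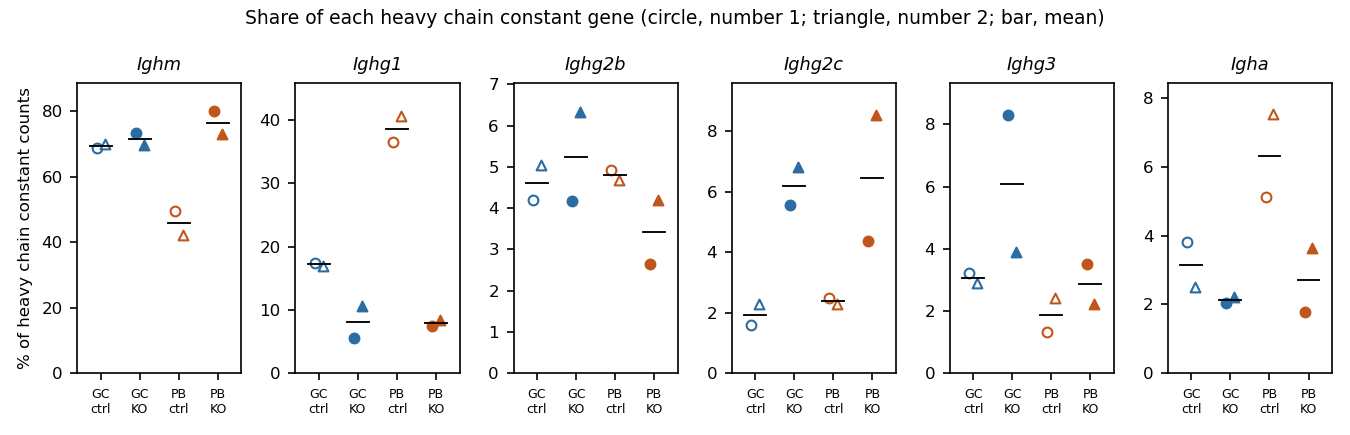
Share of immunoglobulin heavy chain constant counts, in percent, held by 6 isotype genes in the 8 pools, each point being 1 pool and each bar a mean. In plasmablasts Ighm lies at 42.3 and 49.5% in control and 72.9 and 80.2% in knockout pools, and Ighg1 at 36.5 and 40.7% and at 7.46 and 8.41%.

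Gene lists are described by counts and medians. Over all tested genes 0.48% were called lower and 0.0609% higher, 51.4% of differences were negative and the median was log2 -0.01. In the plasma cell programme 5 of 22 members had a lower effect in PB and 0 a higher one, with 18 negative and a median difference of log2 -0.65 (0.49 in GC B cells, -0.00 in PB). The members called were Bhlha15, Creb3l2, Slpi, the surface antigen gene Ly6c2 (log2 -1.45) and the ER prolyl isomerase gene Fkbp11 (log2 -2.95). Of these, Slpi was lower in knockout PB and the other 4 higher in knockout GC B cells. Ly6c2 has a close paralogue, so its count is uncertain. Fkbp11 rests on 12 counts in the control GC pools, and its difference was log2 -4.68 without either first GC pool and -1.99 to -2.01 without either second one. With 1 pool left out, Slpi was called in 4 of 8 analyses, Fkbp11 in 2 and Ly6c2 in 0. In ER folding and the unfolded protein response 2 of 24 were lower, the chaperone gene Hsp90b1 (log2 -1.67, SE 0.26, edgeR adjusted p = 0.0156) and Creld2 (log2 -1.21, SE 0.22, edgeR adjusted p = 0.035), with 22 negative and a median of -0.51. Hsp90b1 had 243 and 203 CPM in control and 552 and 503 in knockout GC pools, a gain of 1.38% of the control PB level. Of the 8 analyses with 1 pool left out, Hsp90b1 was called in 2 and Creld2 in 0. In translocation, glycosylation and vesicle transport 1 of 38 was lower, the coat protein gene Sec24d (log2 -1.45), with 32 negative and a median of -0.21.

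Interferon response genes had 37 of 40 negative differences and a median of log2 -0.62, from 0.73 in GC B cells and 0.03 in PB. Lower were 3 of the 40, the nucleic acid sensor gene Zbp1 (log2 -0.95), the immunity GTPase gene Irgm1 (log2 -1.18) and Ifi211 (log2 -2.79), and 0 were higher. With any 1 pool left out, 0 of these 3 were called, and without knockout GC pool 1 Ifi211, with 7 counts in the control GC pools, was at log2 -4.13. In GC B cells alone 9 of the 40 were higher in the knockout, against 2.03% of all tested genes. In the T-bet and type 1 list 2 of 20 were lower, Cxcr3 and Irf1, with 15 negative and a median of log2 -0.45. The median effect of that list was 0.33 in GC B cells and 0.28 in PB. In knockout GC B cells 6 of the 20 were higher, against 2.03% of all tested genes. Among integrins and adhesion genes 4 of 28 were lower: Itgb7, Cd9, Cadm1 and Selplg, which encodes the selectin ligand PSGL-1 (log2 -1.05). Cytokine receptors had 2 of 22 lower, Il13ra1 (log2 -2.76) and the signalling inhibitor Socs2 (log2 -2.87). Sec24d, Cadm1, Selplg, Il13ra1 and Socs2 were called in 0 of the 8 analyses with 1 pool left out. The marker sum of NK and plasmacytoid dendritic cells was 228 to 258 CPM in control and 278 to 319 in knockout GC pools, and that of myeloid cells 15.2 to 37.1 and 16.02 to 52.1. Their part in these results was not tested.

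Lists of dividing and activated B cells had mostly positive differences, and 0 of their members were called higher. Of the G2 and mitosis genes 2 of 26 were negative, with a median difference of log2 0.32 (0.10 in GC B cells, 0.44 in PB) and 0 called. For DNA replication and S phase 7 of 30 were negative (median 0.19), for the dark zone 4 of 18 (median 0.27) and for MHC class II presentation 0 of 13 (median 0.24), with 0 called in each. The light zone list had 5 of 26 negative and a median of 0.41, while its 1 called member, Ccnd2, was lower. In the integrated stress response list 1 of 22 was higher, Chac1, with 4 negative and a median of 0.28. GC identity genes (23 tested, median 0.15), B cell receptor genes (23 tested, median 0.14), survival genes (24 tested, median -0.00), class switching genes (26 tested) and the Myb family with reported c-Myb targets (18 tested, median -0.03) had 0 called members in either direction. So had memory-associated genes (17 tested, median -0.63), glycolysis (17 tested, median -0.06) and sterol and fatty acid synthesis (26 tested, median -0.04). Mitochondrially encoded genes (15 tested, median -0.19) and light chain constant genes (4 tested, median -0.27) had 0 called as well. Of 13 listed structural RNAs 8 were matched to the annotation and 5 tested, with 0 called and 0 negative. Rn45s, Rn18s, Rn28s1, Rn7s1 and Rn7s2 were not matched. Whether a called ID without a symbol belongs to this list was not tested. The tested structural RNAs had a median difference of log2 1.24, from -0.98 in GC B cells and -0.04 in PB. Among them Rn7sk, a regulator of transcription elongation, was lower in knockout GC B cells (log2 -2.24, edgeR adjusted p = 0.00358). The part of this difference between GC libraries in the other results was not tested. Heavy chain constant genes had 1 of 8 lower, Ighg1, homing receptors 1 of 22, Cxcr3, and D cyclins and CDK inhibitors 1 of 15, Ccnd2. With scaling by library size alone all differences shift by about log2 -0.17, and the medians of the GC identity (-0.01), B cell receptor (-0.03) and D cyclin lists (-0.07, against 0.10) then have the other sign.

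**Figure D5:**
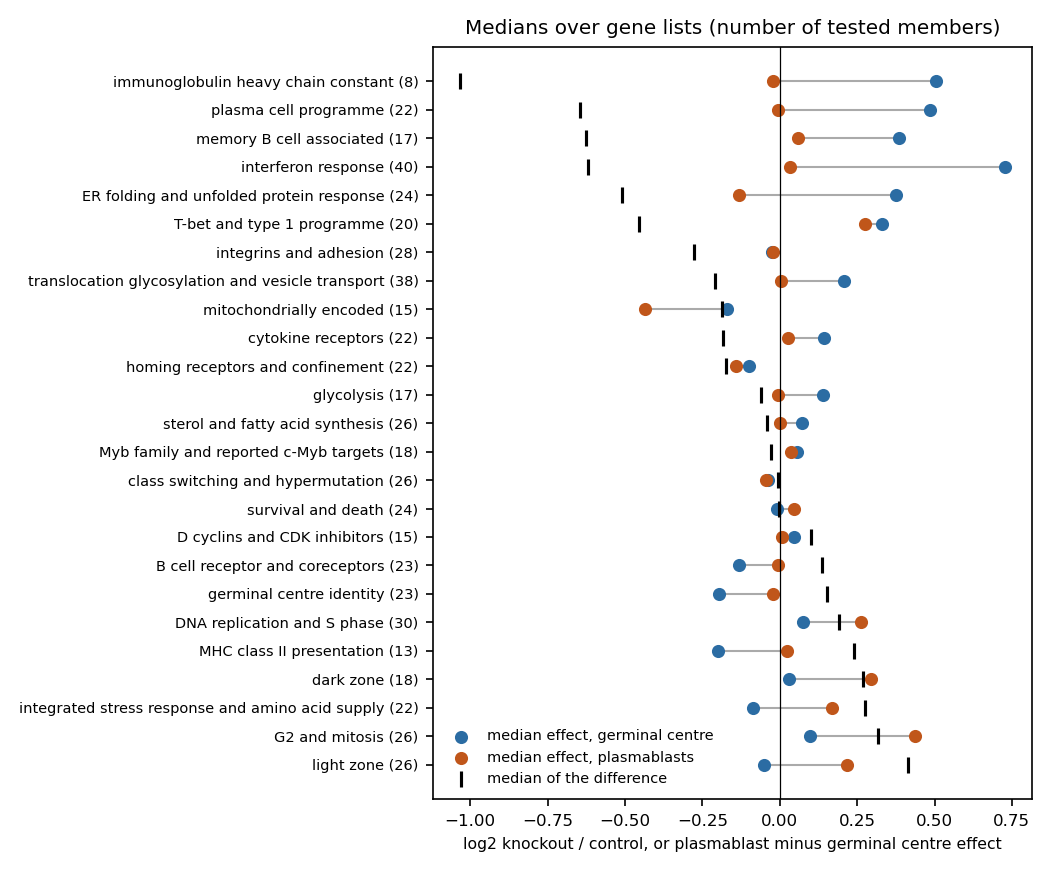
Median log2 effect of the knockout over the tested members of each gene list in germinal centre B cells and in plasmablasts (points), and median of the difference (bars). Interferon response, plasma cell and endoplasmic reticulum lists have positive medians in germinal centre B cells and medians near or below 0 in plasmablasts.

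Of the genes always examined, Mybl2 (log2 1.13, SE 0.37, edgeR adjusted p = 0.378), Mybl1 (0.22, SE 0.74), Myb (-0.45, SE 0.28), Bcl6 (0.89, SE 0.45), Myc (-0.47, SE 0.28), Cxcr4 (-0.31, SE 0.15) and Bcl2 (0.04, SE 0.25) had differences that did not pass. Nor did Ighm (log2 0.17, SE 0.30), Ighg2c (-0.86, SE 0.40) and Igkc (-0.42, SE 0.29). Among list members with the smallest p, the kinase gene Lck had 86.3 and 104 CPM in control and 88.5 and 92.3 in knockout GC pools. In PB it had 1.26 and 1.26 in control and 2.60 and 3.10 in knockout pools. Its PB groups were apart and its GC groups overlapped, and the difference was log2 1.23 (SE 0.30, edgeR adjusted p = 0.126). The GC regulator of G protein signalling Rgs13 (log2 1.23, SE 0.30, edgeR adjusted p = 0.196) and the memory-associated cytokine receptor gene Il9r (log2 -1.32, SE 0.37, edgeR adjusted p = 0.215) did not pass either.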

How the data were processed

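The deposited values are raw counts per Entrez gene ID. Per the submitters' processing notes, the authors used featureCounts and the build mm10, with an aligner and strand setting not given in the sources used here. A RefSeq annotation (GRCm38.p6) gave symbols for 25275 of 27179 IDs. All 12 libraries of the series, including 4 from a separate Moz experiment, shared the estimate of the spread in 1 model in edgeR 4.0.16 (R 4.3.3) with 6 group means. Genes passed filterByExpr (minimum count 10, minimum total 15), libraries were scaled by TMM, and two-sided quasi-likelihood F tests were adjusted by Benjamini-Hochberg over 13131 genes at 0.05. The biological coefficient of variation was 0.221. The model without the date left 6 residual degrees of freedom. That with the date, a block for the replicate number within each experiment and cell type, left 3. The labels give the same experiment date to knockout and control pools of 1 number, so the numbers pair pools within a cell type. They share no date between cell types, where same-numbered pools correlated at 0.247 (control) and 0.303 (knockout). Effects by pair are differences of log2 CPM with a prior count of 2.

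Counting error is small beside the spread between pools except for genes of few counts, such as Faxc in GC B cells, and each group has only 2 pools. The members and the lists were chosen with earlier results of these data known, so no list is independent support. Named genes were those called without the date, the 15 of smallest p in each direction with the date, up to 4 called members of each list (or 2 of smallest p), a set of genes always examined, and up to 2 called IDs without a symbol in each direction. Other called IDs, variable segments, BC035044, Siglecg, Pik3r5, Pycard, Lime1, Thbd, Fkbp11 and the Y-linked genes were named beside that rule, after their values were seen. Of the list symbols, 7 were not in the annotation (P2ry8, Rn45s, Rn18s, Rn28s1, Rn7s1, Rn7s2 and Hbb-bt). The code was tested on simulated data. Alternatives were the 8 libraries alone, DESeq2 1.42.0, limma-voom (limma 3.58.1), other scaling and filters, leaving out immunoglobulin genes and leaving out each pool.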

Additional observations from a re-analysis of the deposited data

Results flagged for a closer look

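The tests of the difference itself singled out Faxc without the date (log2 -5.10) and 71 genes with it. In Faxc and 14 more of the genes named by rule, listed here, every pair of pools moved one way in GC B cells and the other way in PB. This list is not complete. The same held for Hsp90b1, which was called (pairs log2 1.18 and 1.31 in GC B cells, -0.70 and -0.16 in PB). It also held for uncalled genes named by rule, such as Bcl6 (pairs log2 -0.41 and -0.23 in GC B cells, 0.28 and 0.99 in PB). Among the 14 listed, the difference with the date was log2 -2.80 for Tns3, -2.23 for Creb3l2, -2.19 for Slpi and -1.94 for Bhlha15. It was log2 -1.66 for Fxyd5, -1.61 for Ccnd2, -1.56 for Sub1, -1.52 for ID 100861633, -1.37 for Nucb2 and -1.24 for Glipr1. Positive differences among the 14 were log2 3.91 for ID 19791, 3.72 for ID 100861531, 2.07 for Chac1 and 1.82 for Parm1. Among these 14, the effect passed in each cell type alone for Ccnd2, and for the other 13 it passed in at most 1 of them.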

How the results depend on the processing

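The number of genes whose Myb effect differed depended on the model more than on the scaling. Without the date 1 gene passed. With the replicate block it was 71, with the 8 Myb libraries alone 0 (407 at an unadjusted p under 0.05) and with both 405 (114 higher, 291 lower). Without the date DESeq2 called 43, limma-voom 0 (406 unadjusted), edgeR with no filter on low counts 136, and with at least 10 counts in all 8 libraries 0 (267 unadjusted). Leaving out 1 pool gave 0 to 3. From the 71 of the replicate block, library size scaling gave 177, DESeq2 107, limma-voom 33 and no filter 156, and leaving out 1 GC pool 20, 21, 22 or 23 and 1 PB pool 18. All 71 kept their direction and call under DESeq2 size factors and library size scaling, as did the 60 testable without immunoglobulin genes. The cause of these shifts was not tested.

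Reversals concerned uncalled genes only. Bcl2 was 0.036 with the replicate block, 0.13 in limma-voom, and with the block 0.040 with DESeq2 size factors, 0.071 in DESeq2, 0.055 with no filter, 0.012 with the strict filter, 0.038 without immunoglobulin genes, 0.51 and 0.50 without a first GC pool and 0.16 without a first PB pool. With 1 pool left out and no block it ran from -0.83 to 1.30. Ighm was -0.013 with library size scaling, and -0.021 and -0.036 without a second GC pool. Ranges with 1 pool left out were -0.0091 to 1.64 for Birc5, -1.69 to 0.022 for COX2, -0.27 to 0.99 for Cdk1, -1.19 to 0.35 (also 0.0060) for Fasn, -0.54 to 0.066 for Ldha, -0.11 to 0.51 for Mybl1 and -0.66 to 0.079 for Rif1. For the difference of log2 isotype shares they were -1.25 to -0.23 for Igha, -1.07 to 3.19 for Ighd, -0.97 to -0.39 for Ighe, -1.58 to -0.67 for Ighg1, -1.02 to -0.35 for Ighg2b, -0.82 to 0.14 for Ighg2c, -0.80 to 0.30 for Ighg3 and 0.58 to 0.81 for Ighm.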
